A study of Schizosaccharomyces pombe with 14 samples.

Results

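Pac1 is an RNase III of fission yeast, an enzyme that cuts double-stranded RNA. It is known for trimming the precursors of ribosomal RNA, small nuclear RNAs (snRNAs) and small nucleolar RNAs (snoRNAs) in the nucleus. In the experiment described here, Pac1 was withdrawn from the nucleus by anchor-away and the RNA left after removal of ribosomal RNA was sequenced. The members are the 2 Pac1-AA libraries and their 2 control (CTL) libraries, chosen by their sample labels, 4 of the 14 RNA-seq libraries in all. Both strains were h- and carried torSE::KanMX6, fkh1::URA+, an integrated nmt1-rpl13-2FKBP12-leu1+ at leu1-32, ura4-D18 and ade6-M210. The Pac1-AA strain (FBY2300) carried Pac1-FRB-GFP::natMX6 in addition, and FBY2066 was the CTL strain. All cells grew at 30°C in EMM, a minimal medium, and received rapamycin at 2.5 µg/ml for 2 h. Each group is therefore 1 strain, and a Pac1-AA library without rapamycin was not analysed here, so the tag, any other difference between the strains and the nuclear depletion of Pac1 cannot be told apart. The study describes the libraries of a group as biological replicates, and they come from the same strain, so the p-values measure only the spread between these libraries.

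Anchor-away uses rapamycin as a bridge. The protein of interest carries an FRB domain, an abundant ribosomal protein carries FKBP12, and rapamycin joins them, so that the ribosomal protein takes its partner along when it leaves the nucleus with new ribosomal subunits. Rapamycin also binds Tor kinases through the cell's own FKBP12, which is why the strains carry the torSE and fkh1 alleles. RNase III enzymes act on hairpins in nascent or precursor RNA, and in yeasts their cuts open the way for exonucleases that form the ends of snRNAs and snoRNAs. Their loss is best known for leaving such precursors unprocessed, and the wider messenger RNA population is less often described.

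The authors' fragments counted on genes came to 19877576 and 33426243 in CTL against to 50263361 and 53258725 in Pac1-AA, so that every Pac1-AA library was deeper than every CTL library. Between 6583 and 6712 genes had a count, mitochondrial RNA took 2.83 to 3.38% and ribosomal RNA 0.0111 to 0.0221% of the counts. Levels are given in CPM, each count relative to its library's total after scaling by the trimmed mean of M values (TMM), in the order CTL_1, CTL_2, Pac1-AA_1 and Pac1-AA_2, and differences as the log2 fold change of Pac1-AA over CTL with its standard error (SE, n = 2 per group). A gene was called higher or lower when its adjusted p was below 0.01 in the quasi-likelihood test of edgeR, adjusted by Benjamini-Hochberg over the 6328 genes tested of 7049 in the table.

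The pac1 gene, which was tagged and not deleted, had 97.0 and 94.2 CPM in CTL against 157 and 154 in Pac1-AA. Its RNA was thus higher in the strain whose protein was tagged, by 0.70 on the log2 scale (SE 0.0313, edgeR adjusted p = 6.23e-07). The counts cannot show where the protein was, and the tag sequence was not counted. The disrupted fkh1 still had 59.9 to 63.0 CPM in all 4 libraries, and tor2 had 541 to 567 CPM. In both genes the groups overlapped, and both strains share those alleles. Of the 9 construct and marker genes, pac1 rose and nmt1 (-0.28), ade6 (-0.18) and his3 (-0.17) fell, the last pair being no longer called without either Pac1-AA library.

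Across the genome the change consisted of a few very large rises and of many small shifts that leaned downward. There were 288 genes called higher and 472 called lower, 12.0% of those tested (4.55% and 7.46%), and all 760 had both Pac1-AA libraries on the same side of both CTL libraries. Such separation was itself common, with Pac1-AA above CTL in 31.7% of the tested genes and below it in 30.8%. Only 53 genes (0.838%) changed over 2-fold, 39 of them upward (0.616%) and 14 downward (0.221%). A shift under 0.25 on the log2 scale was measured for 5087 genes (80.4%), of which 70 were called higher and 164 lower. Between 0.25 and 0.5 the calls were 83 higher and 218 lower of 775 genes, and between 0.5 and 1 the order turned, with 96 higher and 76 lower of 373. Thus 535 of the 760 called genes (70.4%) moved by less than 0.5, the median called rise being 0.45 and the median called fall -0.33. The smallest called shifts were 0.13 upward and -0.13 downward, with a common biological coefficient of variation of 0.0299. Libraries of a group still differed by more than counting error. Between replicates the chi-square per degree of freedom was 14.67 in CTL and 6.53 in Pac1-AA.

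The balance of rises and falls rested on the scaling. Scaled by library totals alone, the median of all genes moved from 0.00 to 0.11, and the calls became 1128 higher and 293 lower (79.4% higher, against 37.9%). Leaving out a Pac1-AA library left 465 or 443 calls and leaving out CTL_1 gave 1167. No called gene changed sign under any of these settings. The plot of shift against level sets out the classes described below.

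**Figure D1:**
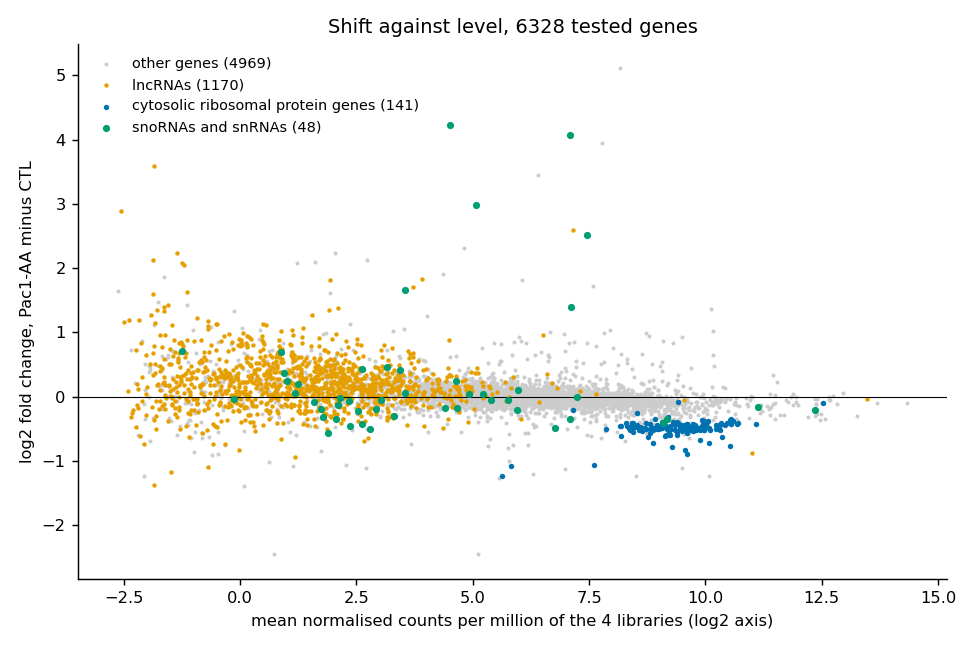
Log2 fold change (Pac1-AA minus CTL, vertical axis) against the mean normalised CPM of the 4 libraries (horizontal, log2 axis) for 6328 tested genes, 1 point each, coloured by class. The 141 ribosomal protein genes form a tight band around their median of -0.47, most lncRNAs lie above 0 at low levels, and a few snoRNAs, snRNAs and other genes stand far above the rest.

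Among the gene classes, long non-coding RNAs (lncRNAs) leaned upward and abundant messenger RNAs downward. Of 844 tested lncRNAs that lie antisense to a protein-coding gene, 52 were higher and 8 lower. These are 6.16% and 0.948%, against 4.55% and 7.46% of all genes, so the calls differed from the background mainly in their few falls. The median log2 fold change was 0.17, and 635 lay above 0. Of the 326 other lncRNAs 22 were higher and 3 lower (6.75% and 0.92%, median 0.23, 244 above 0). For protein-coding genes the counts were 205 higher and 451 lower of 5008 (4.09% and 9.01%, median -0.01). With scaling by library totals they were 947 and 283. No gene was called among the 37 tested genes of the mitochondrial genome, 24 tRNA genes, 7 rRNA genes, 7 other non-coding RNAs and 4 pseudogenes by edgeR at this threshold. Over all genes 2213 had an unadjusted p below 0.05, and DESeq2 called 713 genes in all. The 74 lncRNAs called higher became 38 or 33 without Pac1-AA_1 or Pac1-AA_2 and 131 without CTL_1. Their medians stayed above 0 under each alternative, between 0.15 and 0.27 for antisense and 0.14 and 0.33 for other lncRNAs.

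These RNAs are scarce, with a median CTL level of 2.88 CPM for antisense and 1.56 for other lncRNAs against 73.0 for protein-coding genes. All antisense lncRNAs together made up 0.763 and 0.736% of the counts in CTL against 0.732 and 0.759% in Pac1-AA. All other lncRNAs made up 1.60 and 1.13% against 1.52 and 1.40%, so both whole sums overlapped between the groups. Without rrk1, which fell, the antisense sum was 0.496 and 0.490% in CTL against 0.588 and 0.603% in Pac1-AA. Without srp7, the 7SL RNA of the signal recognition particle, the other sum was 0.264 and 0.252% in CTL against 0.299 and 0.298% in Pac1-AA. A rise was thus visible only with these members left out. The shares are of unscaled counts, and with scaling by library totals the median of all genes was itself 0.11. Counting was strand-specific, and how many sense reads still reached the antisense counts was not tested. Of the coding partners of the 52 antisense lncRNAs that rose, 7 were higher, 6 lower and 39 not called. For antisense lncRNAs that were not called, the partners were 36 higher, 68 lower and 678 not called. Depth differed between the groups in the same direction, and after all libraries were thinned to the smallest total the medians were 0.18 and 0.19.

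The largest lncRNA rise was that of SPNCRNA.1597, with 42.6 and 38.7 CPM in CTL against 238 and 252 in Pac1-AA (log2 fold change 2.60, SE 0.0487, adjusted p = 1.22e-09). It spans the snoRNA gene sno16 on the same strand and lies antisense to lys9, which fell by 0.25. The count on sno16 itself was 0 in all 4 libraries. Fragments on overlapping genes of 1 strand may be lost in counting, so this 0 is no measure of sno16 RNA. By Northern blot, the study found that 5′-extended sno16 precursors accumulated after Pac1 nuclear exclusion. SPNCRNA.1276 rose from 5.99 and 7.06 to 24.3 and 23.1 CPM, SPNCRNA.687 by 1.81 and SPNCRNA.1557 by 1.70. SPNCRNA.1463 was barely detected in CTL, with 2 and 5 counts against 34 and 36 in Pac1-AA, and was not called by DESeq2 or without either Pac1-AA library. In the other direction stood rrk1, the RNA subunit of RNase P, which matures the 5′ ends of tRNAs. It had 2768 and 2551 CPM in CTL against 1386 and 1501 in Pac1-AA, a fall of 0.88 on the log2 scale (SE 0.0509, adjusted p = 2.66e-06). It was the only called gene of the 9 tested for RNase P and its relative RNase MRP. nc-tco1 (-0.94), SPNCRNA.980 (-0.70), SPNCRNA.1488 (-0.64) and SPNCRNA.1626 (-0.50) fell as well, of which nc-tco1 was not called without either Pac1-AA library and SPNCRNA.1488 not without Pac1-AA_1.

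Small nuclear and nucleolar RNAs, the textbook substrates of RNase III, moved in both directions. SnoRNAs guide the methylation (C/D box) or pseudouridylation (H/ACA box) of other RNAs, and snRNAs are the RNA core of the spliceosome. Of 67 annotated snoRNA genes 42 had enough counts to be tested, 7 were higher and 4 lower, and of 6 genes annotated as snRNAs, which are the spliceosomal snu1, snu2, snu4, snu5 and snu6 and a further RNA, snR48, 1 was higher and 2 were lower. Among the tested snoRNAs 16.7% were thus higher and 9.52% lower, against 4.55% and 7.46% of all genes. The 25 snoRNA genes not tested had between 0 and 8 counts in a library. Fragments on overlapping genes of 1 strand may be lost, so a low count need not mean little RNA. For snR30, snR90 and snR95 a second entry of the same name had more counts and was tested. Without a Pac1-AA library, 5 snoRNAs were called higher and 1 or 2 lower, and without CTL_2 9 were lower. A count on such a gene can come from a precursor or from the mature RNA, which the table cannot tell apart. The snoRNA with the second largest rise, snr79 (chromosome I, 2705950 to 2706037), is shown because its boxes are readable in the RefSeq sequence (ASM294v3), with the C box TGATGA and the D box CTGA in capitals.
snr79: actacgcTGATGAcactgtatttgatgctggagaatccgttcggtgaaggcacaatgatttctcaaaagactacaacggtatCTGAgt

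For snr79 the levels were 17.4 and 13.8 CPM in CTL against 250.2 and 266 in Pac1-AA (log2 fold change 4.08, SE 0.0717, edgeR adjusted p = 9.51e-10). snR88 had 2.40 and 2.27 CPM against 41.8 and 45.1, and snu5, the U5 RNA of the spliceosome, 8.33 and 7.06 against 58.0 and 60.8. In each of these the lowest Pac1-AA library was several times the highest CTL library. snoU14, which is needed for the maturation of small subunit rRNA, rose by 2.52, snoR02 by 1.66 and snoR61 by 1.39. The H/ACA RNAs snR33 (0.46) and snR95 (0.41) rose less, and neither was called by DESeq2 or without either Pac1-AA library.

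Among the abundant members some fell and others were not called. snu3, the U3 RNA of pre-rRNA processing and the most abundant of them, had 5670 and 5529 CPM in CTL against 4865 and 4856 in Pac1-AA (-0.20). snu2 fell from 692 and 608 to 505 and 511 CPM, snu4 from 143 and 113 to 86.4 and 93.7, and sno12 from 652 and 588 to 448 and 485. snR42 (-0.35) and snoR56 (-0.50) complete the called falls. Of these, snu3, snu4, snR42 and snoR56 were no longer called with scaling by library totals, nor snu4 and snoR56 by DESeq2, and every one but sno12 lost its call without Pac1-AA_1. The second most abundant, snu32, which is a further U3 RNA, had 2599 and 2114 CPM in CTL against 2091 and 2115 in Pac1-AA, and sno20 had 191 and 115 against 165 and 134, so that in both the groups overlapped. snu1 had overlapping groups too, and snu6 (-0.45, adjusted p = 0.0775) was not called. Genes that start within 500 bases downstream of a snRNA or snoRNA gene on the same strand moved little. Of the 10 tested such genes 0 were higher and 1, rpl8, was lower in edgeR's test, against 64 and 164 of 2095 genes with any upstream neighbour so placed. rpl8 (-0.42) encodes a ribosomal protein, and 139 of the 141 genes of that group were lower, with a median of -0.47.

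Cytosolic ribosomal proteins made the broadest change. Of 141 ribosomal protein genes, 139 were called lower and 0 higher, and in all 141 both Pac1-AA libraries were below both CTL libraries. Over all tested genes 7.46% were called lower and 30.8% were separated in that direction. The median was -0.47, so that the typical gene stood at 72.2% of its CTL level, and 113 of the 141 lay within 0.1 of that median. The quartiles were -0.51 and -0.43. Together these genes took 12.2% of the counts of tested genes in each CTL library and 9.56 and 9.53% in Pac1-AA. The large subunit (76 of 77 lower, median -0.47) and the small subunit (58 of 58, -0.47) moved alike in size, as did genes without introns (65 of 66, median -0.48) and with introns (74 of 75, -0.47). Under every alternative 135 to 140 of them were called lower, with medians between -0.35 and -0.48.

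**Figure D2:**
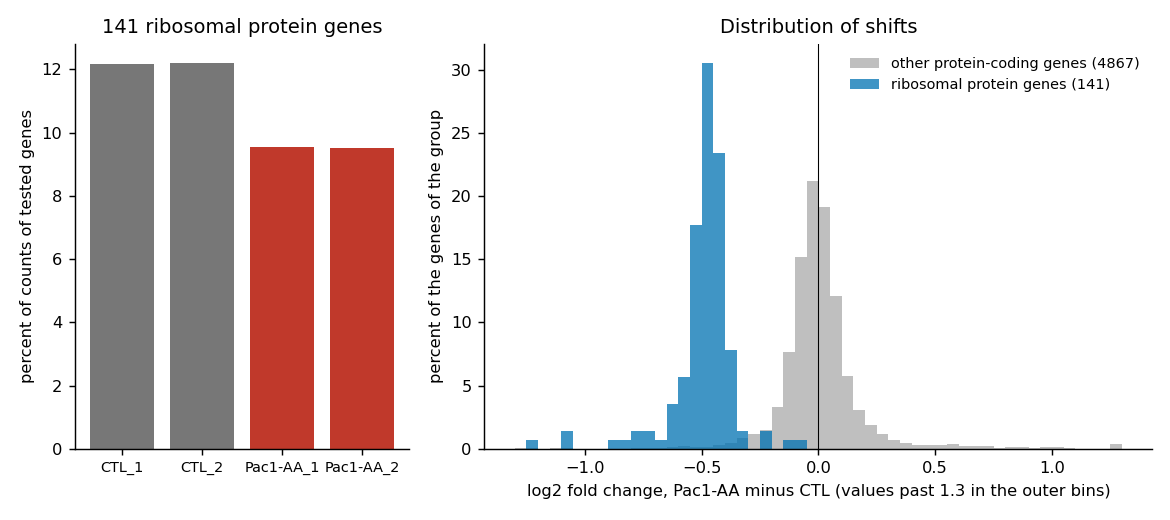
Left, share of the counts of tested genes (percent, axis from 0) taken by 141 ribosomal protein genes in each library. Right, percent of genes per bin of log2 fold change (Pac1-AA minus CTL) for the ribosomal protein genes and the 4867 other protein-coding genes. The share was 12.2% in both CTL libraries and 9.56 and 9.53% in Pac1-AA, and the ribosomal protein genes peak near -0.47 where the others peak near 0.

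A typical member was rps1102, a small subunit protein, with 585 and 580 CPM in CTL against 417 and 408 in Pac1-AA (log2 fold change -0.50, SE 0.0321, adjusted p = 4.70e-06). The 10 called genes with the lowest adjusted p among those that moved by less than 0.5 were rps1102, ubi2, rps2601, rpl2801, rpl1202, rpp103, rpl2301, rps2202, rps1801 and srm1, so 9 encode ribosomal proteins. The exception, srm1, encodes spermidine synthase and had 371 and 365 CPM against 263 and 268.

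The 3 largest falls were in scarcer copies. rpl1603 (uL13) had 69.4 and 68.7 CPM in CTL against 28.1 and 30.8 in Pac1-AA (-1.23), rpl3002 (eL30) 77.9 and 76.6 against 36.6 and 36.6 (-1.07), and rpl102 (uL1) 262 and 263 against 126 and 125 (-1.07). Their more abundant paralogs rpl3001 (-0.47) and rpl101 (-0.52) stayed near the group median. The next largest fall was that of an abundant gene, rpl301 (L3), from 996 and 1024 to 556 and 530 CPM (-0.90), and its paralog rpl302 fell by 0.78. Near-identical copies can share reads, so the split between paralogs is uncertain. The 2 members not called were rpl13 and rpp202. rpl13 had 6050 and 6153 CPM in CTL against 5831 and 5517 in Pac1-AA (-0.10, adjusted p = 0.0803). Both strains carry a further rpl13 copy in the anchor construct under the nmt1 promoter, and reads from the copies cannot be told apart. rpp202, which encodes a P2 stalk protein, had 706 and 701 against 658 and 670.2 (-0.08, adjusted p = 0.104).

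Fission yeast ribosomal protein promoters often hold the HomolD box, spelled CAGTCACA or TGTGACTG, and sometimes HomolE, searched here as CCCTACCCT or AGGGTAGGG. On either strand of the 250 bases before the RefSeq start, HomolD stood in 89 of 141 ribosomal protein windows (63.1%) and in 134 of all 5112 protein-coding windows (2.62%), and HomolE in 49 (34.8%) and 76 (1.49%). The fall was of the same size with HomolD (median -0.47, 89 of 89 lower) and without (median -0.48, 50 of 52). Among the 312 genes called lower outside the list, 22 (7.05%) held HomolD and 7 (2.24%) HomolE. Of the 205 protein-coding genes called higher 0 held either. The windows of ribosomal proteins hold 89 of the 134 HomolD and 49 of the 76 HomolE matches. Outside the list the base is therefore lower than 2.62% and 1.49%, and it was not worked out. The 0 of 205 is thus no sign that these boxes are lacking among the genes called higher. The 3 genes that fell most and the 2 not called are shown by the 100 bases before their annotated start, from the RefSeq genome ASM294v3, with HomolD or HomolE in capitals. A match is a description of letters and no evidence of a bound factor.
rpl1603: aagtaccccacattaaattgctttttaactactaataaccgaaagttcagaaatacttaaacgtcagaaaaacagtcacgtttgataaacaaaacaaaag
rpl3002: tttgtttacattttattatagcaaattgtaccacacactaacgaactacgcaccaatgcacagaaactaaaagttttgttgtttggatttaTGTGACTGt
rpl102: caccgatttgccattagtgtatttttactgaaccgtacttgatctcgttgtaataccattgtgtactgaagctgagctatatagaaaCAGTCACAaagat
rpl13: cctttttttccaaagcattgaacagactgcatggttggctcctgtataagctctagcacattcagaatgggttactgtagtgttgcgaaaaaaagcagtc
rpp202: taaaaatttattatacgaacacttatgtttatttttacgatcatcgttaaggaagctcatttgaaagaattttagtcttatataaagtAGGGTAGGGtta

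The windows of rpl3002 and rpl102 end with a HomolD box 9 and 13 bases before the start, and that of rpp202 holds HomolE. Neither spelling was found in the windows shown for rpl1603 and rpl13. Only exact spellings were counted. The rpl1603 window holds cagtcacg, which differs from HomolD in its last letter, and the rpl13 window ends in cagtc. Genes counted as without HomolD may therefore hold near or cut-off matches.

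Falls of smaller size were also called among genes that make certain amino acids, charge tRNAs, act in translation or make nucleotides. The shares called lower were 72.7, 45.7, 22 and 55.6% in that order, against 7.46% of all genes. Of 22 genes for arginine, lysine, leucine, isoleucine and valine synthesis 16 were lower and 0 higher (median -0.25). lys4, the homocitrate synthase at the head of lysine synthesis, had 503 and 502 CPM in CTL against 336 and 341 in Pac1-AA (-0.57, SE 0.0304, adjusted p = 1.79e-06), and ilv5, which acts in valine and isoleucine synthesis, 1715 and 1730 against 1284 and 1249 (-0.44). leu3 and arg4 fell by 0.32 each. Of 35 aminoacyl-tRNA synthetases, which charge tRNAs, 16 were lower and 1 higher (median -0.10), with lrs1 for leucine at -0.34 and vrs1 for valine at -0.29. The member that rose, slm5 (0.30), encodes an asparagine--tRNA ligase and was not called without Pac1-AA_1. Of 50 translation factors 11 were lower and 0 higher (median -0.10), led by the eIF5A gene tif512 (-0.42), the elongation factor genes eft202 (-0.41) and tef3 (-0.31) and the eIF4A gene tif1 (-0.35). Of 18 genes for purine and pyrimidine synthesis 10 were lower and 1 higher (median -0.17). ade7 (-0.33), ade10 (-0.28) and ade8 (-0.26) act in the purine pathway before IMP. The member that rose, gua1, encodes the IMP dehydrogenase that leads to guanine nucleotides and had 950 and 987 CPM against 1334 and 1355 (0.47).

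These counts were less firm than that of the ribosomal proteins. With scaling by library totals the genes called lower came to 11 for amino acid synthesis, 4 for the synthetases, 7 for the translation factors and 3 for purine and pyrimidine synthesis, and without Pac1-AA_1 or Pac1-AA_2 to 12 or 7, 3 or 3, 8 or 7, and 3 or 2. With length and GC offsets they were 12, 8, 6 and 3 in the same order. Without CTL_1 or CTL_2 the translation factors called lower were 20 or 19.

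Genes that build the ribosome held few calls, apart from the core proteins of snoRNPs. Of 99 ribosome biogenesis factors 3 were lower and 1 higher (3.03% and 1.01%, median -0.04), against 7.46% and 4.55% of all genes. In 52 of the 99 both Pac1-AA libraries lay below CTL, against 30.8% of all tested genes. The 3 called lower became 6 or 8 without CTL_1 or CTL_2 and 1 without either Pac1-AA library. With library totals 8 were called higher and 1 lower. Of 29 proteins of RNA polymerases I and III, which transcribe rRNA and tRNA genes, edgeR called 0. The core proteins of snoRNPs, the particles that snoRNAs form, had 4 of 8 lower and 0 higher (median -0.15). fib1, the methyltransferase of C/D particles, had 191 and 183 CPM in CTL against 152 and 142 in Pac1-AA (-0.34), and gar1 (-0.29) and cbf5 (-0.21) of the H/ACA particles and snu13 (-0.16) fell too, with cbf5 and snu13 not called without either Pac1-AA library. Mitochondrial ribosomal proteins (0 of 75), the proteasome (0 of 35), the nuclear exosome (0 of 23), genes of mRNA decay (0 of 21) and the tricarboxylic acid cycle (0 of 15) held no gene called by edgeR, and each of these medians was under 0.05 in size. With scaling by library totals 14 mitochondrial ribosomal protein genes were called higher, and without CTL_1 5 were. Of 74 spliceosome proteins 1 was higher and 2 were lower. Of 15 genes for RNase III and RNAi 1 was called, pac1 itself.

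**Figure D3:**
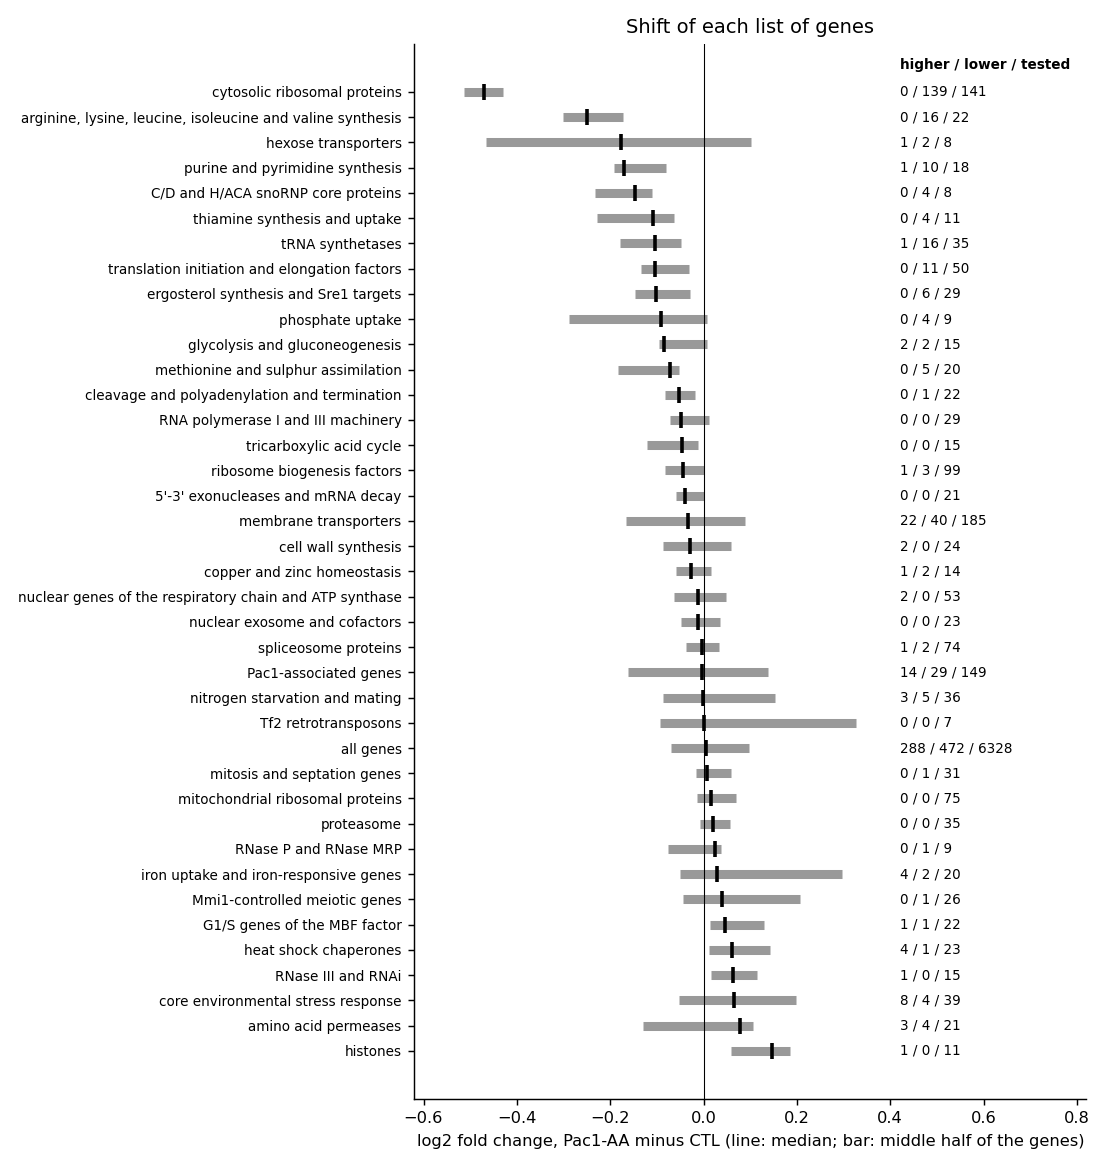
Median (line) and interquartile range (bar) of the log2 fold change, Pac1-AA minus CTL, for each list of genes and for all genes, ordered by median, with the number of genes called higher, called lower and tested at the right. Cytosolic ribosomal proteins lie lowest at -0.47, followed by amino acid synthesis at -0.25, while the median over all genes is 0.00.

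Among the quartiles of level, the top one held the most genes called lower. In the top quartile of protein-coding genes by level per kilobase, 343 of 1252 were lower and 69 higher (median -0.07), and without the ribosomal proteins 205 of 1112 were lower and 69 higher (median -0.06). These counts include members of the lists above. Of the 3714 protein-coding genes in no list 170 were lower and 143 higher (4.58% and 3.85%), with a median of 0.00. In the bottom quartile of level the order was 27 lower and 60 higher (median 0.04). Without Pac1-AA_2 the 343 became 221. The shortest genes, once ribosomal proteins were left out, had 40 lower and 37 higher of 1120. Without introns 285 of 2528 genes were lower and 147 higher, and with introns 166 and 58 of 2480.

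The largest changes of single messenger RNAs were rises. SPBC530.02 and its paralog mfs2 encode membrane transporters, and both are among the genes the study lists near Pac1 on chromatin. SPBC530.02 (chromosome II, 787678 to 789529) had 16.3 and 16.1 CPM in CTL against 563 and 557 in Pac1-AA (log2 fold change 5.11, SE 0.0372, adjusted p = 1.41e-12). mfs2 (chromosome I, 113950 to 115962) had 27.7 and 25.6 against 410.2 and 411 (3.95). SPCC330.03c, a predicted cytochrome b5 reductase, followed with 14.3 and 14.2 against 156 and 155 (3.44). In all 3 the libraries of a group lay close together and far from the other group. dak2, a dihydroxyacetone kinase, rose from 8.23 and 10.2 to 45.9 and 47.8 CPM (2.31). eno102 (2.24), SPAPJ695.02 (2.13), gdt1 (2.10), SPBC1289.14 (2.08) and SPAC977.15 (1.61) rose from levels of 0.886 to 2.58 CPM in CTL. SPAC4H3.08 (1.91), SPAPB24D3.07c (1.82) and hhy1 (1.73) complete the 12 largest. Of the 149 tested genes that overlap Pac1-associated loci, 14 were higher and 29 lower (9.40% and 19.5%, against 4.55% and 7.46% of all genes), and 9 were over 2-fold higher, against 0.616% of all. Their median was 0.00.

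**Figure D4:**
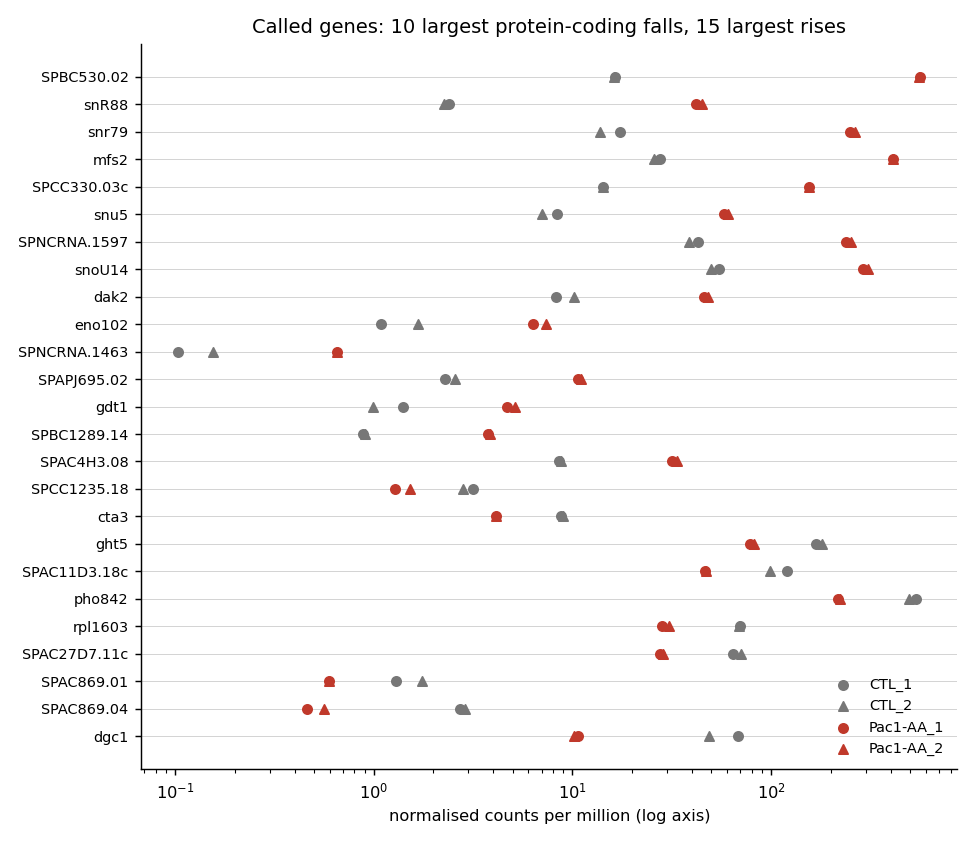
Normalised CPM (horizontal, log axis) in each of the 4 libraries for 15 called genes that rose most and 10 called protein-coding genes that fell most (vertical). CTL is grey and Pac1-AA red, with replicate 1 as circles and 2 as triangles. The rises run up to 5.11 on the log2 scale for SPBC530.02 and the falls down to -2.46 for dgc1.

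The largest falls were smaller in size than the largest rises. dgc1, a D-glutamate cyclase, had 68.1 and 48.6 CPM in CTL against 10.7 and 10.1 in Pac1-AA (-2.46, SE 0.140, adjusted p = 2.65e-06). SPAC869.04, a formamidase-like protein, fell by 2.45, but from levels of 2.71 and 2.89 CPM. The phosphate transporter gene pho842 fell from 532 and 494 to 217 and 221 CPM (-1.23), and the divergent lncRNA SPNCRNA.980, which starts next to it on the other strand, fell by 0.70. ght5, the high-affinity glucose transporter, fell from 168 and 181 to 78.6 and 82.1 CPM (-1.12). SPAC869.01 (-1.39), SPAC27D7.11c (-1.26), SPAC11D3.18c (-1.21), the calcium pump gene cta3 (-1.11) and SPCC1235.18 (-1.08) complete the 12 with the 3 ribosomal protein genes above. SPAC869.01 was not called by DESeq2 or without either Pac1-AA library, and SPCC1235.18 was not called after thinning to equal depth or without Pac1-AA_1.

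Transporters moved in both directions. Of 185 genes for membrane transporters 22 were higher and 40 lower, against 4.55% and 7.46% of all genes (11.9% and 21.6% here). Paralogs went in opposite directions. pho841 had 90.6 and 99.9 CPM in CTL against 173 and 170.3 in Pac1-AA (0.84) where pho842 fell, and the gluconate transporter gene ght3 rose by 0.99, from 2.03 and 2.70 CPM, where ght5 and ght2 (-0.47) fell. Among 21 amino acid permeases 3 were higher and 4 lower, with nrg1 at 0.93 and agp3 (-0.66), isp5 (-0.64) and SPBC1652.02 (-0.57) below. Without Pac1-AA_2 the 40 transporters called lower came to 24, and with library totals the 22 called higher came to 45.

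Lists for stress, metals and starvation held smaller numbers of calls, in some of them in both directions and in others downward or upward only. Over all genes 4.55% were higher and 7.46% lower. Near or below those shares were the G1/S genes (4.55% and 4.55%), the meiotic genes controlled by Mmi1 (3.85% lower) and the genes of mitosis and septation (3.23% lower). Above them were, among others, the stress response (20.5% higher, 10.3% lower) and the ergosterol genes (20.7% lower). Of 39 genes of the core environmental stress response 8 were higher and 4 lower (median 0.06), with the sulfiredoxin gene srx1 at 0.72, and of 23 chaperones 4 were higher and 1 lower (median 0.06, 18 of 23 above 0). Iron uptake genes had 4 of 20 higher, among them the neighbours fip1, with 87.4 and 71.1 CPM against 123 and 117, and fio1 (0.55), which form the high-affinity iron permease and oxidase, and 2 lower. Of 14 copper and zinc genes 1 was higher, the metallothionein gene zym1 (0.61), and 2 were lower. The falls were those of the zinc transporter gene zrt1 (-0.36) and the alcohol dehydrogenase gene adh4 (-0.21). Among 36 genes of nitrogen starvation and mating 3 were higher and 5 lower, gpa2 (0.55) and ste7 (-0.55) being examples. Of 9 listed phosphate uptake genes 4 were lower and 0 higher (44.4%, median -0.09). Lower were the acid phosphatase gene pho1 (-0.33), the polyphosphate chaperone gene vtc4 (-0.31), the transporter gene pho84 (-0.29) and gde1 (-0.24). The list did not hold the paralogs pho841, which rose, and pho842, which fell. Of 20 genes for methionine and sulphur assimilation 5 were lower and 0 higher, with met17 at -0.60, of 11 thiamine genes 4 were lower and 0 higher, with thi2 at -0.35, and of 29 ergosterol genes 6 were lower and 0 higher. Of 26 meiotic genes controlled by Mmi1 1 was lower, spn5 (-0.84), which was not called with either Pac1-AA library left out. Of 22 G1/S genes 1 was higher and 1 lower, of 31 genes of mitosis and septation 1 was lower, of 24 cell wall genes 2 were higher and of 11 histone genes 1 was higher.

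Further rises were measured in a group of catabolic genes. The group was chosen after its values were seen, by the product wording of purine and nucleoside breakdown and uptake, and so carries no weight of its own. Of its 20 tested genes 12 were higher, 3 lower and 5 not called (median 0.79), where 4.55% of all genes were higher and 7.46% lower. The group took 0.329 and 0.359% of the counts in CTL against 0.587 and 0.590% in Pac1-AA. This route turns purine bases into urate, allantoin and finally urea and glyoxylate, and lets yeast use purines as nitrogen source. xan1, which makes urate from xanthine, had 548 and 688 CPM in CTL against 1611 and 1583 in Pac1-AA (1.37, SE 0.0842, adjusted p = 3.78e-06). uro1, the uricase of the next step, had 271 and 335 against 576 and 599 (0.95), and dal2, the allantoicase, 260 and 305 against 567 and 563 (1.00). The ureidoglycolate hydrolase gene dal1 rose by 0.82, the guanine deaminase gene gud1 by 0.76 and the adenine deaminase gene dea2 by 0.28. The purine transporter gene SPAC29B12.14c (1.04), the nucleoside phosphorylase gene SPAC1805.16c (0.99), the nucleoside hydrolase gene SPBC800.11 (0.86) and the urea transporter gene SPBC23G7.13c (0.83) rose too, as did the racemase-family genes SPCC576.02 (0.97) and SPAC1F7.10 (0.84).

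Not every member joined. The urease genes ure2, ure4, ure6 and ure7 and the nucleoside hydrolase gene urh2 were not called, and urh1 (-0.36), the nucleoside transporter gene SPCC285.05 (-0.17) and the second urea transporter gene SPAC869.03c (-1.02) were lower. In most of the rising genes CTL_2 was above CTL_1, and both were well below Pac1-AA. The count of 12 was unchanged by leaving out any 1 library. The group was chosen after its values in these same libraries were seen, so this lends it no weight. In nitrogen metabolism, gdh1, the glutamate dehydrogenase that takes up ammonium with NADPH, fell from 880.4 and 913 to 637 and 637 CPM (-0.49), and gdh2, the NAD enzyme that releases ammonium, rose from 289.9 and 290.1 to 396 and 389 (0.44). These genes were also chosen after its values were seen.

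**Figure D5:**
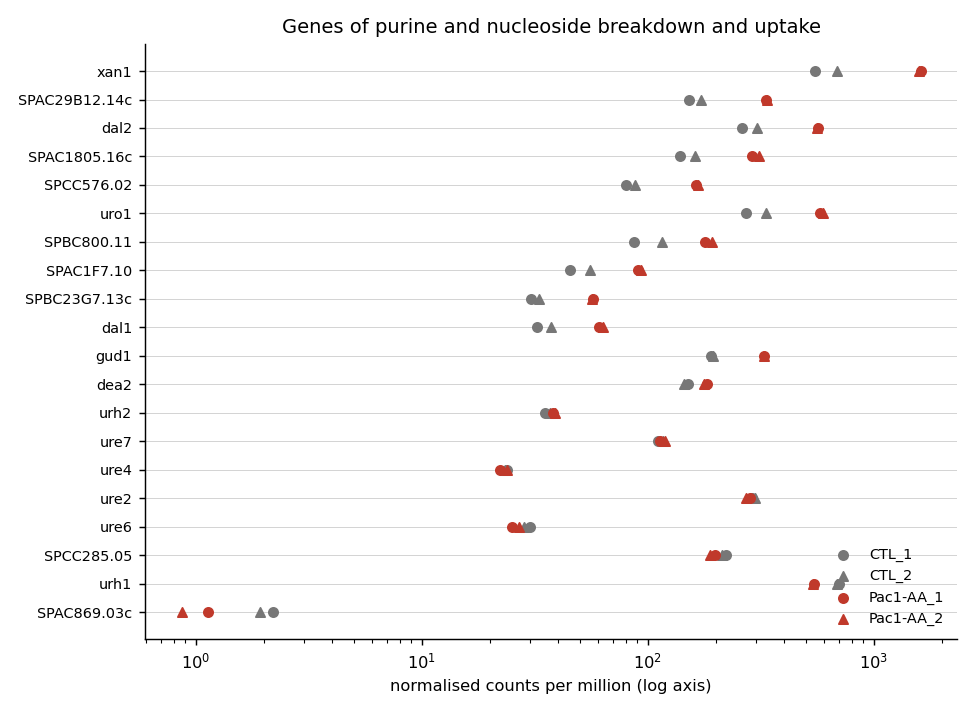
Normalised CPM (horizontal, log axis) in each of the 4 libraries for the 20 tested genes of purine and nucleoside breakdown and uptake, ordered by log2 fold change from xan1 (1.37) to SPAC869.03c (-1.02). CTL is grey and Pac1-AA red, and in the 12 called rises both red points lie right of both grey ones.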

How the data were processed

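Per the study's methods, ribosomal RNA was removed from total RNA (RiboZero), stranded TruSeq libraries were sequenced in pairs, reads were trimmed with Trimmomatic and mapped with HISAT2 to ASM294v2, and fragments were counted by strand with featureCounts. The authors deposited 1 table of whole-number counts per gene, not normalised. A fragment on overlapping genes of 1 strand may be lost or shared. Gene classes and products came from the RefSeq annotation of ASM294v3, to which 6844 of 7049 genes matched by locus tag and 15 by synonym. Coordinates of genes are those of the deposited table.

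The 4 libraries were fitted alone, with strain as the only term, in edgeR 4.0.16 (R 4.3.3), with TMM factors, filterByExpr at a minimum count of 10 and Benjamini-Hochberg adjustment. The 2-fold threshold is the study's. The members, the 39 lists and the tests were chosen with earlier results of these data known, and lists are described without a set test. One gene with a prolyl-tRNA ligase product, prs1, was taken out of the purine list by its annotation. Level was split per kilobase of gene. The text names the 12 called protein-coding genes of largest rise and of largest fall, the 5 such lncRNAs each way, called small RNAs, up to 4 called members per list, the 10 small shifts of lowest adjusted p and the construct genes, and genes outside this rule as given for comparison or as chosen after their values were seen. Libraries held 19877576 to 53258725 fragments, so 3 counts are 0.0563 to 0.151 CPM, which covers counting error only. The scripts were tested on simulated data. Alternatives were DESeq2 1.42.0, other scalings and filters, thinning, length and GC offsets, a replicate block, other thresholds, and each library left out.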

Additional observations from a re-analysis of the deposited data

How the results depend on the processing

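The 760 calls at any fold came to 1421 with library totals, to 1378 at an adjusted p below 0.05, and to between 443 and 1167 with 1 library left out. The 53 over 2-fold became 225 at a log2 threshold of 0.5 and lay between 46 and 79 otherwise. The 74 lncRNAs called higher came to 167 with library totals, to 191 at 0.05 and to between 33 and 131 with 1 library left out. The 343 genes of the top quartile of level called lower, a count whose alternatives were added after seeing the data, came to 228 with library totals and to between 221 and 459 with 1 library left out. Within 1000 bases, 2 genes downstream of a snRNA or snoRNA gene were called in place of 1. The replicate numbers are not stated to mark a shared culture or day and same-numbered libraries hardly deviated together (correlation 0.0831). With the number as a replicate block the calls at any fold came to 1393 and the lncRNAs to 186. DESeq2 called 713 genes, 656 of them shared, and after thinning to the smallest total 695 were called, 661 shared (87.0% of 760). No called gene changed sign in any setting. Of the 144 genes named by rule, 10 were no longer on the same side of the threshold with DESeq2, 22 with library totals and 17 with length and GC offsets, and the cause was not tested. With 2 libraries a group, depth and strain move together and cannot be told apart.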

Other observations

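Called genes were frequent towards chromosome ends, in bins set after the values were seen. On chromosomes I and II, of 80 tested protein-coding genes within 100 kb of an end 14 were higher and 13 lower (17.5% and 16.2%), from 100 to 200 kb 15 and 29 of 155 (9.68% and 18.7%), and further inside 135 and 330 of 3869 (3.49% and 8.53%). Some runs of neighbours went the same way, picked after their values were seen and not counted against other runs. SPAC977.14c (0.53), SPAC977.15 (1.61), dak2 (2.31) and SPAC977.17 (0.87) lie side by side on chromosome I and rose, while SPAC869.01, SPAC869.03c and SPAC869.04 at the other end fell. Around mfs2 the genes SPAC11D3.03c (-0.77), SPAC11D3.14c (-0.58), SPAC11D3.15 (-0.76), SPAC11D3.18c (-1.21) and dgc1 (-2.46) fell, and SPAC11D3.06, downstream of mfs2 on the same strand, fell by 0.30. Whether the strains differ in these regions was not tested.

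Away from the ends, xan1 and SPCC576.02, which lie next to each other on chromosome III, rose together, as did dal2 and SPAC1F7.10 on chromosome I. The neighbours ght5 and SPCC1235.18 on chromosome III fell together. In the gene yak3, an aldose reductase of the SPAC1F7 run, levels rose from 695 and 802 to 1548 and 1510 CPM (1.03), and in SPAC26H5.09c, an oxidoreductase, from 452 and 458 to 825 and 797. Both were chosen after their values were seen.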
